A study of Mus musculus with 8 samples.

Results

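Immediate early genes are described here in RNA pools of mouse embryonic pancreas. They were taken as a fixed group of 10 well known members, namely Egr1, Egr2, Egr3, Fos, Fosb, Jun, Junb, Dusp1, Nr4a1 and Ier2. All were kept whatever their values, but the group was chosen with earlier results of these data known. All 10 were found among 19938 genes that a probe set names alone, each through 1 probe set of an Affymetrix mouse gene 1.0 ST array. Buds came from e12.5 embryos. The VEGF pool held buds of 3 embryos with the genotype Pdx1-tTA; TET-VEGF, in which a tetracycline transactivator driven by the Pdx1 promoter, active in the pancreatic epithelium, switches on a VEGF transgene. The control pool held buds of 3 littermates with Pdx1-tTA alone, so both bud pools carried the transactivator. The explant pools came from wild type buds cultured for 2 days with VEGFR2i, which is named as an inhibitor of VEGF receptor 2, or with vehicle, 5 in each pool. All 4 pools were measured on 2 arrays each, the second a repeat of the same RNA, which makes 8 arrays. No condition has a second pool, so no test of a condition was possible, and every SD given here (n = 2 arrays) is technical.

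Immediate early genes are transcribed within minutes of a signal at the cell surface, without new protein being made first, and their messages are short-lived. Growth factor receptors reach them through the kinases MEK and ERK, which act on the serum response factor and its ETS-family partners at CArG boxes, and through kinases that act on CREB at cAMP response elements. The Egr proteins are zinc finger transcription factors, Fos and Jun proteins pair as AP-1, Nr4a1 is an orphan nuclear receptor, and Dusp1 is a phosphatase that switches MAP kinases off. VEGF is among the signals that induce Egr and Nr4a genes in endothelial cells. The same genes also respond to handling, explantation and culture.

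Promoter sequence of 4 members is shown so that elements through which such signals are known to act can be read in it, in genes that differed between the explant pools to different degrees. Each window runs from 250 bases before to 50 bases after a transcription start in RefSeq (build GRCm38.p6), 5′ to 3′ on the strand of the gene, with CArG boxes, the cAMP response element TGACGTCA and its core TGACG in capitals on either strand. A CArG box is CC, a stretch of A or T, and GG. The core lies within the full element and reads CGTCA where it is on the other strand. The windows are chr10:67537619-67537918 on the plus strand for Egr2, chr17:26508423-26508722 on the minus strand for Dusp1, chr15:101266596-101266895 on the plus strand for Nr4a1 and chr12:85473640-85473939 on the plus strand for Fos.
Egr2: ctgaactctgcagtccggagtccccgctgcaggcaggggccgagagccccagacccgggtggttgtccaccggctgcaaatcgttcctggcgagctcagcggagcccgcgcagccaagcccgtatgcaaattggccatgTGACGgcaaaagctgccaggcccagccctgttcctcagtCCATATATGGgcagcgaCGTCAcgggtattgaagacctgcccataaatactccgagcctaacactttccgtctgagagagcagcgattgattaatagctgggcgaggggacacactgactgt
Dusp1: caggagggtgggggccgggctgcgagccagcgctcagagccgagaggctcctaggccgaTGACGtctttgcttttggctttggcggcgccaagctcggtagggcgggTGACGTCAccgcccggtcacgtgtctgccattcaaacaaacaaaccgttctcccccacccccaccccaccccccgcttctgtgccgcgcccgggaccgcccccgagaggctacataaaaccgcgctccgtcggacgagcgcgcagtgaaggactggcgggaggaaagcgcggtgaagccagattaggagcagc
Nr4a1: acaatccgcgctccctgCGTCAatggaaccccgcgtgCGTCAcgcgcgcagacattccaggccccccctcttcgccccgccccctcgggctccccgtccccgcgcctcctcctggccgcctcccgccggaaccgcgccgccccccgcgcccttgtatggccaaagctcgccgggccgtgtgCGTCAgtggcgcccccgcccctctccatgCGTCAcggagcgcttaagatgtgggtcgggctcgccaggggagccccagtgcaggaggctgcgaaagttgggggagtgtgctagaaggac
Fos: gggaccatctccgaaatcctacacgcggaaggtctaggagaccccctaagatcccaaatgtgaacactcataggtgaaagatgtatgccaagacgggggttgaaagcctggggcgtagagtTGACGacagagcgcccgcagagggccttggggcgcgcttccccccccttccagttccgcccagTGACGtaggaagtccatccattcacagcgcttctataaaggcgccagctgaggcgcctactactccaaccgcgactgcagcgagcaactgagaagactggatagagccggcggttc

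The Egr2 window held a CArG box, CCATATATGG, that begins 72 bases before this start, and the core 111 and 55 bases before it. RefSeq gives Egr2 5 windows, and 4 of them held a CArG box; 3 overlap and share the one shown. Dusp1 had a full cAMP response element beginning 143 bases before its start. The core occurred 4 times in the Nr4a1 window and 2 times in that of Fos. Over all 32851 windows of the same length, 1.63% held a CArG box, 1.79% the full cAMP response element and 20.8% the core. Of the 7 members whose windows were searched, Egr2 was the 1 with a CArG box, Dusp1 the 1 with a full element, and all but Jun held the core. None of the 7 held the Egr site GCGTGGGCG or the AP-1 site TGANTCA, which 0.612% and 7.81% of all windows hold. These matches describe letters in a short window and say nothing of binding. No window of Egr1, Egr3 or Ier2 was searched, so whether they hold a CArG box or a full element is not known here. Sequence outside the windows was not searched for any member. The lack of a match, such as that of a CArG box in Fos, therefore holds for the window alone.

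Expression is the authors' log2 value per probe set, and a difference is between pool means, followed in brackets by its range over the 4 pairs of arrays. A gene is called higher or lower here where its pool means were 1.5-fold or more apart (a log2 difference of 0.58) and no array of one pool overlapped with the other. Between the 2 arrays of a pool, 95% of the 19938 genes differed by less than 0.21 (control and vehicle) to 0.26 (VEGF and VEGFR2i). The members' largest such gaps were 0.37 for Fos in the VEGF pool, 0.26 for Egr3 in the control pool, 0.28 for Egr3 in the pool labelled VEGFR2i and 0.12 for Egr1 in the vehicle pool. The median probe set was at 4.08 to 4.12 on bud arrays and at 4.29 to 4.33 on explant arrays. The explant labels stand against the endothelial genes: all 10 endothelial markers examined were higher in the pool labelled VEGFR2i than in the vehicle pool, with a median difference of 2.49. Directions below follow the labels as they stand.

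**Figure D1:**
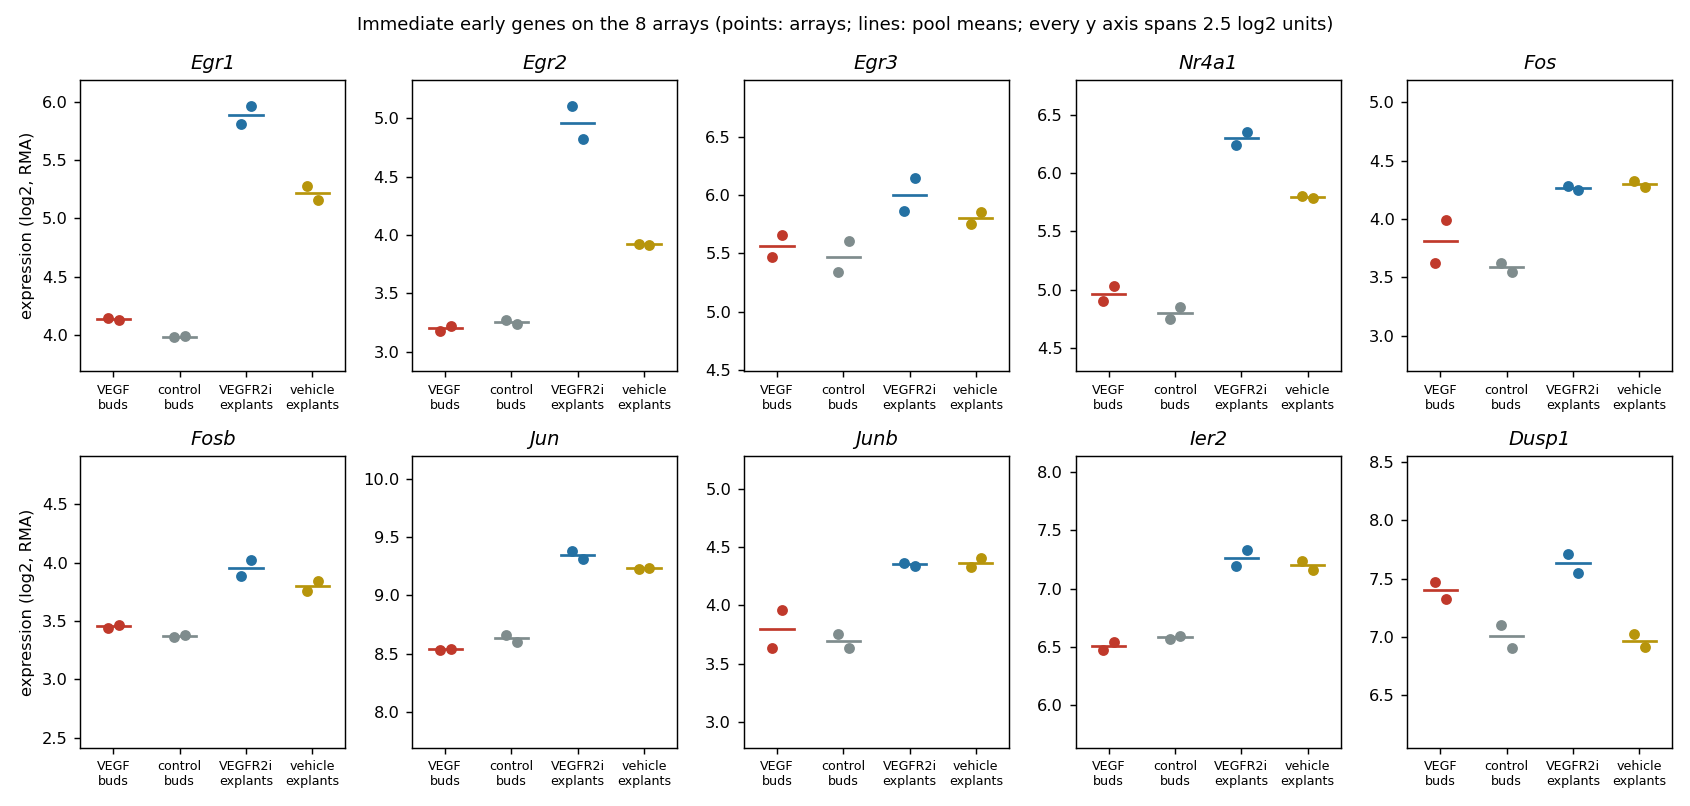
Expression of the 10 immediate early genes (log2 after RMA, y axis) in the 4 pools (x axis), with a point per array and a line at the pool mean; every axis spans the same range. Egr1, Egr2 and Nr4a1 stand highest in the explants labelled VEGFR2i, at 5.89, 4.96 and 6.30. The Dusp1 means of the VEGF buds (7.40) and the explants labelled VEGFR2i (7.63) lie above those of control buds (7.005) and vehicle explants (6.97). Between the bud pools that difference is short of 1.5-fold.

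Between the explant pools, 3 of the 10 members, Egr2, Egr1 and Dusp1, were higher in the pool labelled VEGFR2i, none was lower, and the Fos and Jun genes differed little. Over all genes, 1.82% were higher and 0.371% lower by the same rule. The members' median difference was 0.18, against -0.004 for all genes. Arrays of the pools did not overlap for 7 members, all higher in the pool labelled VEGFR2i, where 25.9% of all genes lay apart in that direction and 25.0% in the other. The question of this comparison was what blocking the VEGF receptor does to the cultured bud, and with 1 pool per arm and the endothelial genes against the labels it gives the difference between these pools alone.

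Egr2, a zinc finger factor best known from the hindbrain, Schwann cells and lymphocytes, had the largest difference of the 10 (probe set 10363735). Its arrays stood at 5.10 and 4.82 in the pool labelled VEGFR2i, against 3.92 and 3.92 in the vehicle pool. Both arrays of the first pool lay well above both of the second, and the gap of 0.28 between them was far smaller than the gap between pools. The difference was 1.04 [0.90, 1.18], a 2.06-fold level, the 111th largest increase of 19938 genes. In the vehicle pool the probe set lay below the array median, where RMA compresses differences.

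Egr1, the family member induced by nearly every mitogen, stood at 5.81 and 5.96 in the pool labelled VEGFR2i, against 5.28 and 5.16 in the vehicle pool (probe set 10454782). The pools did not overlap, and the difference was 0.67 [0.53, 0.81], or 1.59-fold. Egr3, which in endothelial cells is known as a gene induced by VEGF, did not share this size. Its arrays were at 5.86 and 6.15 in the pool labelled VEGFR2i, against 5.76 and 5.85 in the vehicle pool, nearly touching, with a difference of 0.20 [0.01, 0.39] that is smaller than the gap of 0.28 between the first pool's own arrays. Nr4a1, the orphan nuclear receptor also called Nur77, came close to the threshold (probe set 10427035). It was at 6.24 and 6.35 in the pool labelled VEGFR2i, against 5.80 and 5.79 in the vehicle pool, a difference of 0.50 [0.44, 0.56]. The range over its array pairs was narrower than that of Egr1, and all of them stayed short of 1.5-fold.

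The probe sets of the AP-1 subunits showed no difference of that size. Fos, the classic partner of Jun proteins, was at 4.28 and 4.25 in the pool labelled VEGFR2i, against 4.33 and 4.27 in the vehicle pool, and the arrays overlapped (difference -0.04 [-0.08, 0.01]). Junb overlapped as well, at 4.36 and 4.34 in the pool labelled VEGFR2i against 4.33 and 4.40 in vehicle. Fosb differed by 0.16 [0.05, 0.26], at 3.95 ± 0.09 in the pool labelled VEGFR2i, against 3.80 ± 0.06 in the vehicle pool (SD). Jun itself, at 9.35 ± 0.05 in the pool labelled VEGFR2i, against 9.23 ± 0.003 in the vehicle pool, differed by 0.12 [0.08, 0.16]. Ier2, a small nuclear protein of the early response, was at 7.20 and 7.33 in the pool labelled VEGFR2i, against 7.24 and 7.16 in the vehicle pool, with overlapping arrays. None of these 5 reached the threshold. Fosb lay below the medians of the explant arrays (4.29 to 4.33), and Fos and Junb lay close to them. RMA compresses differences at such levels, so these 3 probe sets may not show a change that took place.

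Dusp1, the MAP kinase phosphatase, stood at 7.71 and 7.55 in the pool labelled VEGFR2i, against 7.02 and 6.92 in the vehicle pool (probe set 10449284). The pools lay apart with a difference of 0.66 [0.53, 0.79], or 1.58-fold. Dusp1 was the one call of the 3 that rested on a single array: without the first VEGFR2i array its difference was 0.58, just short of the threshold. Egr2 and Egr1 kept theirs whichever array was left out.

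**Figure D2:**
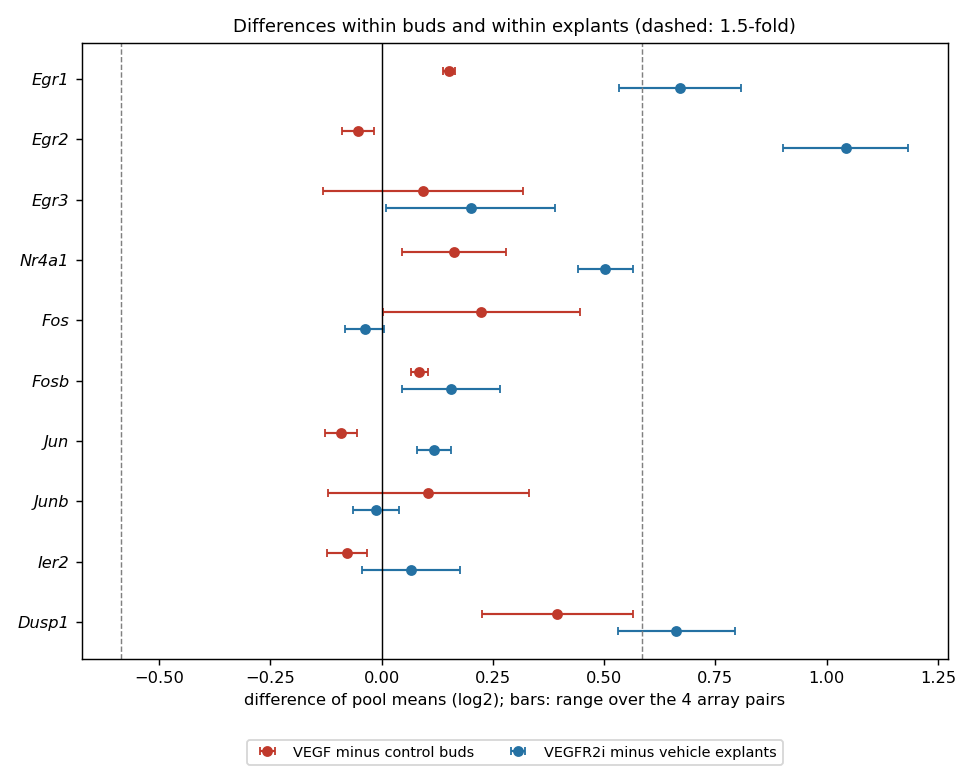
Difference of pool means (log2, x axis) of each immediate early gene (y axis) for VEGF minus control buds and for VEGFR2i minus vehicle explants, with bars for the range over the 4 array pairs and dashed lines at 1.5-fold. Egr2 (1.04), Egr1 (0.67) and Dusp1 (0.66) pass the line in explants and no member passes it in buds, where Dusp1 comes nearest (0.39).

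Between the VEGF and control buds none of the 10 members was higher or lower by the rule, where 0.552% of all genes were higher and 0.933% lower. Their median difference was 0.10, against 0.003 for all genes, and the values ran from -0.09 for Jun to 0.39 for Dusp1. Arrays did not overlap for 5 members that were higher in the VEGF pool (Egr1, Fos, Fosb, Dusp1 and Nr4a1) and for 3 that were lower (Egr2, Jun and Ier2). Of all genes, 23.7% lay apart with the VEGF pool above and 21.6% with it below. The comparison asked what added VEGF does to the bud, and these genes give no difference of the chosen size. Egr2, Fos, Fosb and Junb lay below the medians of the bud arrays (4.08 to 4.12), and Egr1 lay close to them. RMA compresses differences at such levels, so these probe sets may not show a change that took place.

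Dusp1 again stood out among the members. Its arrays were at 7.47 and 7.33 in the VEGF pool, against 7.10 and 6.91 in the control pool, a difference of 0.39 [0.23, 0.56] or 1.31-fold. All 4 array pairs pointed the same way and none reached 1.5-fold. Egr1 was at 4.15 and 4.13 in VEGF buds, against 3.98 and 3.99 in control buds. That difference, 0.15 [0.14, 0.17], was smaller than the gap within which 95% of genes fell between the 2 arrays of a pool. Nr4a1 was at 4.90 and 5.03 in VEGF buds and at 4.75 and 4.85 in control buds, a difference of 0.16 [0.05, 0.28].

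Egr2 was at 3.18 and 3.22 in VEGF buds and at 3.27 and 3.23 in control buds, all below the array medians, and its difference was -0.05 [-0.09, -0.02]. Egr3 overlapped between the pools, at 5.47 and 5.66 in VEGF buds against 5.34 and 5.60 in control buds. Fos was the least repeatable value, at 3.62 and 3.99 in VEGF buds against 3.62 and 3.55 in control buds, so that its difference of 0.22 [0.003, 0.45] rested on the second VEGF array. Junb was also high on that array alone, at 3.63 and 3.96 in VEGF buds against 3.76 and 3.63 in control buds. Jun was at 8.54 ± 0.01 in VEGF buds and 8.63 ± 0.04 in control buds (SD), Fosb at 3.45 ± 0.02 in VEGF and 3.37 ± 0.01 in control buds, and Ier2 at 6.51 ± 0.05 in VEGF and 6.58 ± 0.02 in control buds.

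Markers of several cell types also differed in both comparisons, in either direction, and their part in the results was not tested. The summed level of the 10 endothelial markers (log2 of the sum of linear values, per array) was 10.87 to 10.94 in the pool labelled VEGFR2i, against 8.40 to 8.47 in the vehicle pool. Of 8 leukocyte markers 7 were higher in the pool labelled VEGFR2i, with summed levels of 9.45 to 9.52 there against 8.35 to 8.39 in the vehicle pool, and of 6 mural markers 5 were higher, at 12.18 to 12.19 in VEGFR2i against 11.45 in vehicle. Acinar markers were lower for 6 of 8, at 13.95 to 13.97 in VEGFR2i against 14.28 to 14.30 in vehicle. In buds 4 of 10 endothelial markers were higher in the VEGF pool, at 11.90 to 11.95 against 11.26 to 11.28 in the control pool. There 5 of 6 erythroid markers were higher too (13.02 to 13.04 in VEGF against 12.45 to 12.48 in control buds), 7 of 8 endocrine markers were lower (10.79 to 10.85 in VEGF against 12.22 to 12.23 in control buds) and 3 of 8 acinar markers were lower (10.97 to 11.03 in VEGF against 11.95 to 11.96 in control buds), as were 4 of 8 epithelial markers (11.28 to 11.38 in VEGF against 11.90 to 11.91 in control buds). The lowest endothelial marker was Emcn in the vehicle pool, at 3.30, and the array gives no true zero. In whole-bud RNA, fewer cells of a type and less RNA per cell cannot be told apart.

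Across the 4 pools, the explants held the higher deposited values of most members, as they did for most genes. The median probe set also lay higher on explant arrays (4.29 to 4.33) than on bud arrays (4.08 to 4.12). Levels and orders in this paragraph are not corrected for that offset. Of all genes, 77.8% had a higher mean in vehicle explants than in control buds, and 78.3% in the explants labelled VEGFR2i. The share of all genes whose arrays lay apart was not counted across the sets. For Egr1, Egr3, Fosb and Nr4a1 the order from high to low was VEGFR2i explants, vehicle explants, VEGF buds, control buds. Neighbours in that order were apart except for Egr3, whose bud pools overlapped. Egr2, Jun and Ier2 had the same order with the bud pools exchanged, and Ier2 overlapped between the explant pools. Fos and Junb had the vehicle explants on top, overlapping with the VEGFR2i explants, and the Junb bud pools overlapped as well. Dusp1 had another order, VEGFR2i explants, VEGF buds, control buds, vehicle explants, with the last 2 overlapping. It was the 1 member whose vehicle explants did not lie above the control buds.

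Set against control buds, 7 members were higher in vehicle explants and none lower, while 17.9% of all genes were higher and 4.08% lower. In the explants labelled VEGFR2i 8 members were higher than in control buds and none lower, with 17.7% and 2.52% of all genes. Both comparisons use the same control arrays, and the sets differ in genotype, culture and age at harvest, which cannot be told apart. Cell type markers differed between the sets as well, and their part in these values was not tested. In the explants labelled VEGFR2i, 8 of 8 acinar and 7 of 8 endocrine markers were higher than in control buds (medians 3.42 and 2.36), while 3 of 10 endothelial and 5 of 6 erythroid markers were lower (medians -0.39 and -2.58). In vehicle explants the same counts were 8 of 8 acinar and 7 of 8 endocrine markers higher (medians 4.64 and 2.48), with 10 of 10 endothelial and 5 of 6 erythroid markers lower (medians -3.22 and -2.88). The levels of all genes were shifted upwards by a median of 0.17 in both. With arrays centred on their medians, or normalized by quantiles over all 8 arrays, 2 members kept the call in vehicle explants (Egr1 and Nr4a1) and 3 in the explants labelled VEGFR2i (with Egr2). Of all genes, 11.4% and 9.88% were then higher in vehicle explants, and 11.2% and 9.21% in the explants labelled VEGFR2i. The share of higher among all calls, 81.5% for vehicle explants, became 64.0% and 57.0% under those scalings, and 87.5% for the explants labelled VEGFR2i became 71.2% and 61.8%.

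Egr1 had the largest difference across the sets. It was at 5.89 ± 0.11 in the explants labelled VEGFR2i, 5.22 ± 0.09 in vehicle explants and 3.99 ± 0.01 in control buds (SD), so that the explants exceeded the control buds by 1.90 [1.82, 1.98] and 1.23 [1.17, 1.30]. Less the median shift of all genes, the vehicle difference was 1.06. Nr4a1 differed by 1.49 [1.39, 1.60] in the explants labelled VEGFR2i and 0.99 [0.93, 1.05] in vehicle explants. Egr2 exceeded control buds by 1.71 in the explants labelled VEGFR2i and by 0.67 in vehicle explants, the second of which was lost under both scalings. In the explants labelled VEGFR2i, the AP-1 genes Fos, Jun and Junb exceeded control buds by 0.68, 0.72 and 0.66, and Ier2 by 0.68. In vehicle explants the same genes exceeded control buds by 0.72, 0.60 and 0.67, and Ier2 by 0.62. These calls were lost under both scalings. The vehicle calls of Jun and Ier2 each rested on 1 array, with 0.57 for Jun without the second control array and 0.575 for Ier2 without the first vehicle array. Fosb (0.58 in VEGFR2i, 0.43 in vehicle explants) and Egr3 (0.53 in VEGFR2i, 0.33 in vehicle explants) were short of the threshold in both. In the explants labelled VEGFR2i they passed it without the second control array (0.59 and 0.66) or without the first VEGFR2i array (0.65 and 0.67). Dusp1 differed by 0.63 in the explants labelled VEGFR2i and by -0.04 in vehicle explants, where it became -0.25 with centred arrays and -0.35 with quantile normalization. The vehicle value turned positive without the first control array (0.06) and without the second vehicle array (0.02). The call of Dusp1 in the explants labelled VEGFR2i was lost without the second control array (0.53), without the first VEGFR2i array (0.55) and under both scalings (0.43 and 0.30).

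**Figure D3:**
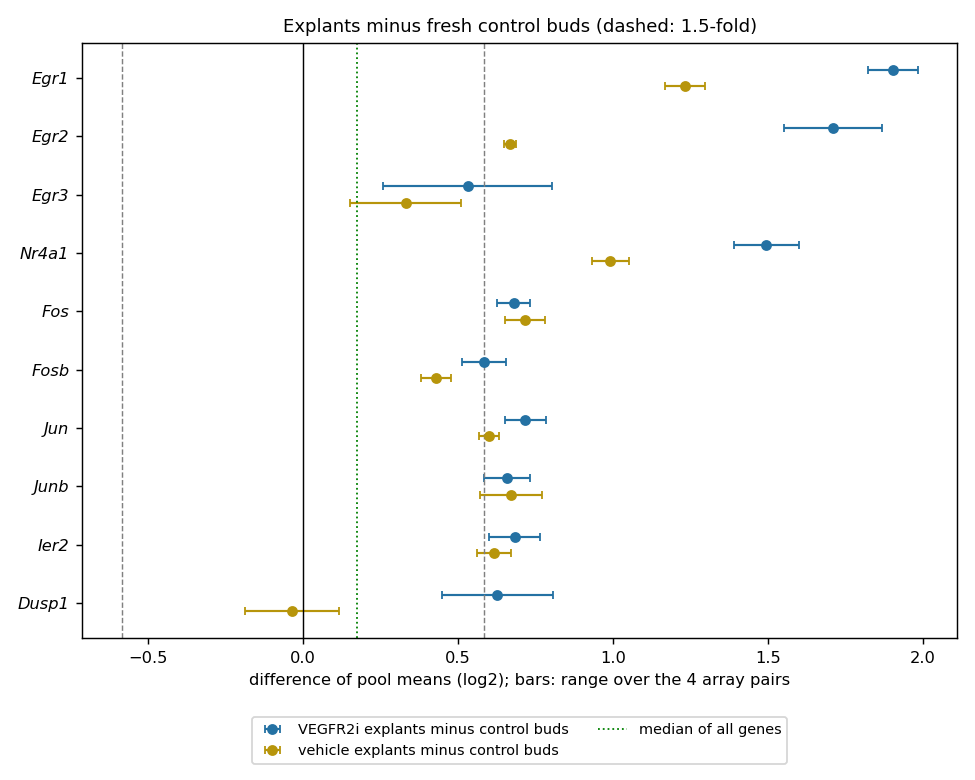
Difference from the control buds (log2, x axis) of each immediate early gene (y axis) in the explants labelled VEGFR2i and in vehicle explants, with bars for the range over array pairs, dashed lines at 1.5-fold and a dotted line at the median of all genes (0.17). Egr1, Egr2 and Nr4a1 lie farthest to the right in the explants labelled VEGFR2i. In vehicle explants Egr1 (1.23), Nr4a1 (0.99) and Fos (0.72) do, and the vehicle value of Dusp1 (-0.04) lies near 0.

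Other genes around the immediate early response were taken from lists. Of 38 further immediate early genes, none was higher or lower between the explant pools, with 26 differences positive and a median of 0.10, against -0.004 for all genes. The nearest were Ptgs2, the inducible cyclooxygenase, with 0.58 [0.46, 0.71], and the polo-like kinase Plk3, with 0.52. The phosphatase Dusp2 and the matrix protein Ccn2 each differed by 0.50. Between the bud pools, 1 of the 38 was higher, the kinase Pim1, at 7.44 in VEGF and 6.60 in control buds, a difference of 0.85 [0.77, 0.92]. The matrix protein Ccn1 differed by 0.56, Btg2, a gene that restrains proliferation, by -0.52, and the median was 0.05. Above control buds, 20 of the 38 were higher in vehicle explants and 21 in the explants labelled VEGFR2i, with medians of 0.66 and 0.65. These counts are subject to the same shift between the sets, for which the share of all genes was 17.9% and 17.7%.

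The factors and kinases that act upstream had 3 of 20 measured members higher in the pool labelled VEGFR2i than in the vehicle pool and none lower, with a median of 0.11. They were Ets1 (1.47 [1.36, 1.58]), an ETS factor strong in endothelium, Elk3 (0.69), an ETS-family partner of the serum response factor that endothelial cells also express, and Nab2 (0.67), a corepressor that binds Egr1 and Egr2. In buds none of the 20 was higher or lower, with a median of 0.01 and Nab2 at 0.29. Feedback genes of the ERK pathway differed most. Of 12, 7 were higher in the pool labelled VEGFR2i and none lower, with a median of 0.64, led by the Sprouty gene Spry4 (1.61 [1.36, 1.85]), the ERK phosphatase Dusp6 (1.14 [1.02, 1.27]) and Spry2 (0.78). In buds none of the 12 reached the threshold, 11 differences were positive, and the median was 0.27, with Dusp6 at 0.55 [0.47, 0.62] and Etv4 at 0.49. Against control buds, 3 of the 12 were higher and none lower in the explants labelled VEGFR2i (median 0.12), and 1 was higher and 5 were lower in vehicle explants (median -0.47). Of the 20 upstream genes, 6 were higher and 1 lower than control buds in the explants labelled VEGFR2i (median 0.41), and 4 were higher and 2 lower in vehicle explants (median 0.40). Between the explant pools, 1.82% of all genes were higher and 0.371% lower. Over control buds, 17.7% of all genes were higher and 2.52% lower in the explants labelled VEGFR2i. In vehicle explants these shares were 17.9% and 4.08%, and the median of all genes was 0.17 in both.

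**Figure D4:**
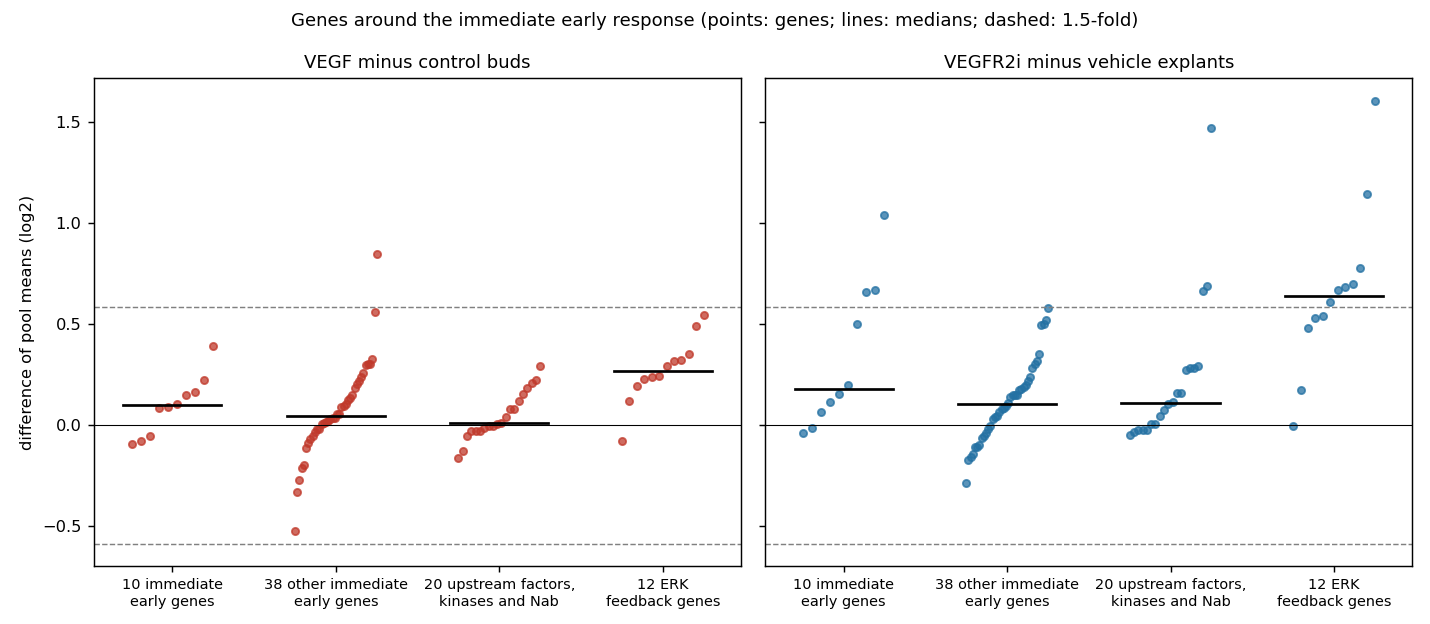
Differences of pool means (log2, y axis) for the 10 immediate early genes and for 3 lists around them (x axis), with VEGF minus control buds on the left and VEGFR2i minus vehicle explants on the right; points are genes, solid lines medians and dashed lines 1.5-fold. The ERK feedback genes have the highest median in both panels, 0.27 in buds and 0.64 in explants.

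Genes with the most similar pattern were sought by the distance between pool means, each gene centred on its own mean over the 4 pools. The search covered 5474 genes that span at least 1.5-fold. Predicted genes, Riken genes and genes named only by a clone or sequence were left out. Nearest to Egr2 were the sulfotransferase gene Chst1 (distance 0.12), the macrophage scavenger receptor Msr1 (0.19) and the leukocyte receptor Lilr4b (0.19). Nearest to Egr1 were Plk3 (0.17), the chemokine Cxcl10 (0.19) and Ly96 (0.21), a partner of a toll-like receptor. Dusp1 was nearest to Kitl, which encodes the stem cell factor (0.05), Sema6d (0.06) and Pde8a (0.08), and Fos to Psmg2 (0.03), Scyl3 (0.04) and Nova1 (0.04). Msr1 stood at 5.09 in the pool labelled VEGFR2i, 4.16 in the vehicle pool and 3.24 in both bud pools, beside 4.96, 3.92, 3.20 (VEGF) and 3.25 (control) for Egr2. The 8 leukocyte markers did not share the rise of Msr1 above the control buds as a list. In vehicle explants 5 were lower than in control buds and 0 higher (median -1.36). In the explants labelled VEGFR2i 2 were lower and 1 higher (median -0.16). Likeness over 4 pools is a description of these pools.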

How the data were processed

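RNA of 4 pools of mouse pancreatic buds or explants was measured on 8 arrays, 2 per pool, and groups were taken from the labels. The deposited files hold a log2 value for each probe set, which the authors normalized by RMA with Partek Genomic Suite 6.5 according to the design text. That they are log2 follows from their range, 2.41 to 13.57. No source used here states whether buds and explants were normalized together. RMA hides changes shared by most genes and compresses those of dim ones.

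Of 35399 probe sets, 21789 had 1 symbol in the platform annotation, 1621 had several and 11989 were not listed. Genes with several probe sets were represented by the one with the highest mean of all arrays, and each member had exactly 1. With 1 pool per group, genes were selected by size, and the number of arrays limits the precision. The counting was tested on simulated data. Alternatives included the methods' t-test and limma 3.58.1 over arrays, which measure hybridization error. Python 3.11.15, R 4.3.3 and scipy 1.17.1 were used. Members, lists and rules were chosen with earlier results of these data known. Named genes were all members, per list up to 4 with the largest absolute difference or all past the size rule where 6 or fewer were, and the 3 nearest in pattern to Egr2, Egr1, Dusp1 and Fos; F3, Plaur and Hspb1 across the sets and Msr1's levels were picked after their values were seen. Listed genes with no probe set of their own were not analysed here.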

Additional observations from a re-analysis of the deposited data

How the results depend on the processing

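Averaging probe sets could not change any member, since each had exactly 1. Size alone gave the same 3 members and the same 437 genes between the explant pools, because the rule on overlap removed none there. The count of 3 members was also the same with arrays centred, quantile normalization, limma over arrays and the methods' t-test without adjustment. It was 2 to 3 with an array left out. After Benjamini-Hochberg adjustment that t-test called 0 members and 1 of all genes there, and 0 genes between the bud pools. With genes of a mean of at least 5 over the arrays only, 5 members remained in the table, and Egr2 and Egr1 were not among them. Of these, 1 (Dusp1) was counted between the explant pools. Over control buds, 3 were counted in vehicle explants and 4 in the explants labelled VEGFR2i. Among all genes with such a mean, 338, 3265 and 3024 were counted in these 3 comparisons, in either direction. The members' median of the vehicle comparison was then 0.60. A lower threshold, 0.32 on the log2 scale, counted 1 member (Dusp1) and 1030 genes between bud pools, 4 members (with Nr4a1) and 1254 genes between explant pools, 9 members and 8120 genes for vehicle explants over control buds, and 10 members and 7977 genes for VEGFR2i explants over control buds. A fold of 2 counted 50 genes between bud pools, 1 member (Egr2) and 133 genes between explant pools, 1 member and 1914 genes for vehicle explants over control buds, and 3 members and 1605 genes for VEGFR2i explants over control buds. Under centring and under quantile normalization, the members counted across the sets were 2 in vehicle explants, where 11.4% and 9.88% of all genes were higher, and 3 in the explants labelled VEGFR2i, where 11.2% and 9.21% were. Their medians were 0.43 and 0.39 in vehicle explants, against 0.64 as deposited, and 0.48 and 0.48 in the explants labelled VEGFR2i, against 0.68. With each array left out in turn, the members' median lay from 0.019 to 0.16 between bud pools, against 0.10, lowest without the second VEGF array, and from 0.12 to 0.28 between explant pools, highest without the first VEGFR2i array. Egr3 and Junb in buds, and Junb and Ier2 in explants, changed sign under some alternatives, all short of the threshold. Dusp1 in vehicle explants over control buds did so too. No paired analysis was possible because the arrays of a pool are technical repeats. Dim probe sets, among them those of Egr2, Fos, Fosb, Junb and, in buds, Egr1, limit what these arrays resolve.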

Other observations

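Genes known to follow growth factor signals in endothelium, from a further list of 12, had 1 member higher between the explant pools. It was Plaur, the urokinase receptor, at 6.25 in the pool labelled VEGFR2i, against 5.26 in the vehicle pool, a difference of 0.99 [0.93, 1.05], and the list median was 0.05. In buds none of the 12 passed the threshold, the median was 0.03, and Adamts1, a secreted protease, had the largest absolute difference (-0.43). Against control buds, 6 of the 12 were higher in the explants labelled VEGFR2i and 5 in vehicle explants, none was lower, and the medians were 0.59 and 0.41. Of all genes, 17.7% and 17.9% were higher there, with a median of 0.17 in both. The list was not counted under other scalings. F3, which encodes tissue factor, differed by 2.20 in the explants labelled VEGFR2i and 2.22 in vehicle explants, and Plaur by 2.69 and 1.70.

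Heat shock and handling stress genes differed little within the sets. Of 11 measured, Hmox1, the inducible haem oxygenase, was higher in the pool labelled VEGFR2i, at 7.96 against 7.33 in the vehicle pool, a difference of 0.63 [0.57, 0.69], and none was lower. In buds none passed, with Hmox1 at 0.52. The list medians were 0.03 in explants and 0.01 in buds. Against control buds, 5 of the 11 were higher in the explants labelled VEGFR2i and 4 in vehicle explants, none was lower, and both medians were 0.43. These counts are subject to the shift between the sets, where 17.7% and 17.9% of all genes were higher and both medians were 0.17. They were not repeated under other scalings. The small heat shock protein gene Hspb1 differed by 1.73 in the explants labelled VEGFR2i and 1.72 in vehicle explants.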
